A study of Mus musculus with 6 samples.

Results

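The 3 arrays titled Empty vector 1, 2 and 3 were taken from a series of 6 arrays, and every probe that carries 1 gene symbol was kept, which gave 34883 probes of 19057 genes. They are called arrays 1, 2 and 3 here. Each holds total RNA of a 4T1 tumour; 4T1 is a line of mammary carcinoma cells that arose in a BALB/c mouse. The cells had been transduced with an empty lentiviral vector, so these control tumours carry the virus too, and were placed in the fifth mammary fat pad, in female BALB/c mice aged 8 to 10 weeks. Tumours were harvested on day 7 and read on Illumina mouse BeadChips, 1 colour per array. The other 3 arrays of the series, from cells given a vector for mouse uPA (the protease encoded by Plau), were not compared here beyond a check of the label.

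That check went against the label. With all 6 arrays normalised together, the 1 Plau probe read 12.97, 13.16 and 12.70 on the arrays labelled empty vector, and 11.94, 12.29 and 12.20 on the arrays labelled uPA overexpression. The arrays labelled empty vector were thus the higher ones, with no overlap. Whether this probe would read a transduced copy of Plau was not tested. "Empty vector" below means arrays with that label.

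A 4T1 tumour is a mixture. The implanted cells are epithelial in origin and are known for an invasive, metastatic growth that resembles aggressive human breast cancer. Fibroblasts, vessels, macrophages and neutrophils of the host grow into such a tumour, and fat or muscle next to the pad can be cut out with it. The array measures the RNA of all of them together, so more cells of a type and more RNA per cell cannot be told apart.

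Signals are given as log2 intensity after background correction and quantile normalisation over the 3 arrays, and differences between arrays are on the same log2 scale. A probe was detected on an array where its detection p, the share of negative control beads brighter than the probe, was under 0.05. A gene was detected where 1 of its probes passed on all 3 arrays, and was read from its probe with the highest mean, which was itself detected for 9969 of 9976 genes. Probes differ in how well they bind, so an order of signals between genes is an order of signals and not of transcript amounts. All 3 arrays belong to 1 group, so no test was made, and the spread is given as SD or range. The labels call the arrays replicates and the design text speaks of tumour samples in triplicate, but neither names the mouse behind each array. The spread may thus be partly technical.

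Of the 19057 genes, 9976 (52.3%) were detected on all 3 arrays, 585 on 2, 891 on 1 and 7605 on none. Mean raw intensity per array ran from 415.7 to 460.0, and 43.6% to 44.4% of all probes were detected per array. The signal of the detected genes had a median of 8.38, with 5% below 5.48 and 5% above 11.99. Genes of unrelated tissues were rarely detected. Olfactory receptors were detected for 6 of 1078 genes (0.557%), with no mean signal above 5.87, and vomeronasal receptors for 1 of 171. These families, and the prolactin family below, were chosen after their values were seen. Of 75 genes of liver, neurons, testis, retina and lens, pancreas and the Y chromosome, 4 were detected (5.33%). They were Syn1, a synaptic vesicle protein, at 5.50, 6.14 and 5.68, Sag, the retinal arrestin, Cela1, a pancreatic elastase, and Amy2a5, a pancreatic amylase. No liver gene (0 of 16), testis gene (0 of 15) or Y-linked gene (0 of 7) was detected, while Xist, the RNA of the silenced X chromosome, read 10.04, 10.34 and 10.00.

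Missing detection does not show that a gene is silent. Rpl6, a ribosomal protein, read 4.45, 4.62 and 4.55 from its single probe and was detected on no array. Sdha, a subunit of succinate dehydrogenase, and Canx, the chaperone calnexin, were not detected on any array either, although nearly every cell uses these genes. Among 6057 detected genes with several probes, all probes were detected for 2321 and only some for 3736.

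**Figure D1:**
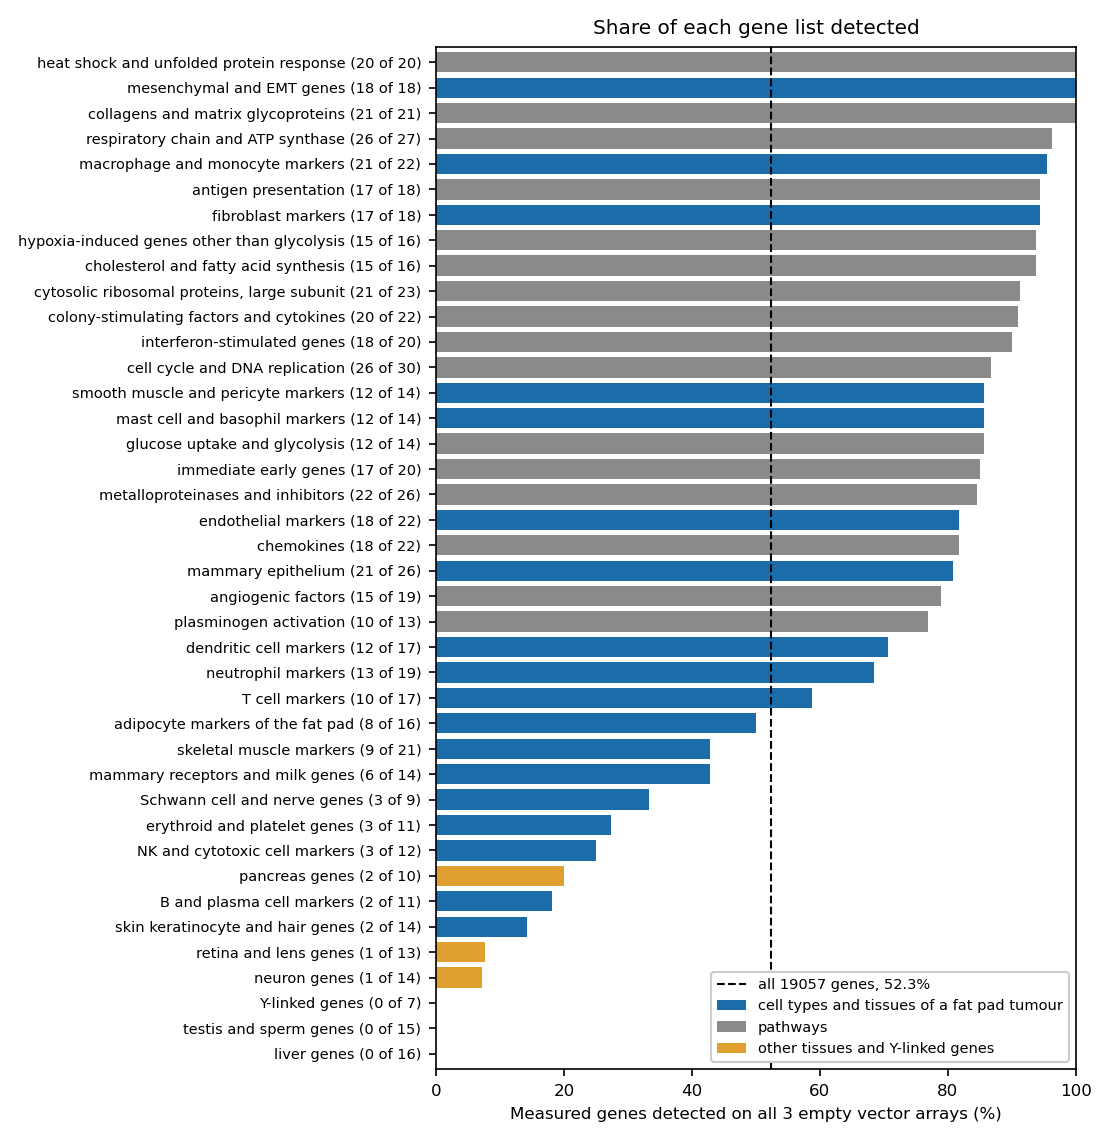
Bars give the share (%) of the measured genes of each list that were detected on all 3 arrays, with the count beside each name; the dashed line is the 52.3% of all genes. Lists of stroma, macrophages and basic cell work lie to the right of the line, those of B cells, keratinocytes and other tissues to the left.

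The 20 brightest genes were led by the machinery of protein synthesis. Rplp1, a stalk protein of the large ribosomal subunit, read 15.22, 15.41 and 15.41, Eef1a1, the translation elongation factor, 15.39, 15.20 and 15.24, and Rps12, a small subunit protein, 15.29, 15.22 and 15.25. Ribosomal proteins Rpl41, Rpl38, Rps29, Rpl37, Rps24, Rps2, Rpl9, Rpl23 and Rps4x were also among them. The others were Fth1 (ferritin heavy chain), Mif (a macrophage cytokine), Ppia (cyclophilin A), CYTB (mitochondrial cytochrome b), S100a11, Wfdc2, Anxa2 and Actb (beta actin). Of the 100 brightest genes, 30 encode cytosolic ribosomal proteins and 6 encode histones, and their median SD was 0.088.

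Promoters of 5 bright genes are shown so that their letters can be read beside the signals. Ppia, Prdx1 (a peroxiredoxin) and H3f3b (histone H3.3) are the brightest detected genes with the letters TATAAA starting 20 to 40 bases before the transcript start. Rps12 and Rps2 are among the 20 brightest and lack TATAAA at that place. They were also picked for a ratio of observed to expected CG pairs of at least 0.9, so their CG pairs are no result. The stretches hold 14 CG pairs in Ppia, 12 in Prdx1, 8 in H3f3b, 9 in Rps12 and 10 in Rps2. Each stretch runs from 80 bases before the RefSeq start to 20 after it, on the gene's strand, and was read from RefSeq on GRCm38.p6. Capitals mark TATAAA in the first 3 and CG pairs in the last 2 only, although the first 3 hold CG pairs too.
Ppia (chr11:6415787-6415886, plus strand): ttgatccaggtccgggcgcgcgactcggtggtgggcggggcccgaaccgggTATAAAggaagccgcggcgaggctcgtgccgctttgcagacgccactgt
Prdx1 (chr4:116685519-116685618, plus strand): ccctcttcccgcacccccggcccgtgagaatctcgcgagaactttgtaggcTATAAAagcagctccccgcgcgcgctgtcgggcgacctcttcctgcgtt
H3f3b (chr11:116024485-116024584, minus strand): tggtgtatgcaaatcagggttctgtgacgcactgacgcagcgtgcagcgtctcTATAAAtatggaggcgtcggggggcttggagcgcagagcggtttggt
Rps12 (chr10:23787190-23787289, minus strand): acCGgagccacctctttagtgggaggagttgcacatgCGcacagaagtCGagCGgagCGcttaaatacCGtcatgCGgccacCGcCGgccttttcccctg
Rps2 (chr17:24719983-24720082, plus strand): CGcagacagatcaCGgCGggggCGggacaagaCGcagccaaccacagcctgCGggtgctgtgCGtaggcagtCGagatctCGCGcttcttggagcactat

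A promoter from 250 bases before to 50 after the start was at hand for 8061 detected genes (80.8%). Their median GC content was 61.0%, against 52.7% over all 27025 promoters of the table, which include the detected ones. The ratio of observed to expected CG pairs had a median of 0.767 against 0.389. GGGCGG, the core of the GC box, lay on either strand in 65.1% of the detected genes' promoters and 35.9% of all. TATAAA on either strand lay in 7.52% and 14.2%, and TATAAA on the gene's strand 20 to 40 bases upstream in 1.39% and 2.22%. CCAAT was found in 38.6% and 37.9%. Within the detected genes, GGGCGG went from 62.3% at a mean signal of 6 to 8 to 69.4% at 10 to 12. The matches describe letters and show no bound factor. The check is void for the dimmest and the brightest range, for the undetected genes and for those that varied most, since under 80% of each had a promoter in the table.

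Epithelial genes were detected in 21 of 26 cases. Here and for the lists below, such counts stand beside the 52.3% of all genes that were detected. Counts of genes that ranged over 2-fold stand beside the 2.72% of all detected genes that did. Krt8 and Krt18, the paired keratins of simple epithelium, read 13.74, 13.92 and 13.81, and 12.55, 12.94 and 12.72. Cdh1, E-cadherin, which joins epithelial cells, read 10.40, 10.21 and 10.34. The widest range of these was 0.39, of Krt18, and no epithelial gene ranged over 2-fold. Krt14, a basal keratin, read 13.56, 13.32 and 13.32, Cldn4, a tight junction protein, 12.37, 12.75 and 12.45, and Esrp1, a splicing regulator of epithelial cells, 11.62, 11.96 and 11.43. Epcam, an epithelial adhesion molecule, was not detected by its single probe (4.80, 4.95 and 4.84), nor was Krt5.

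All 18 mesenchymal genes measured were detected beside them. Vim, the intermediate filament vimentin, read 13.41, 12.84 and 13.49, and Fn1, fibronectin, 13.14, 12.68 and 13.25. Both were lowest on array 2. Snai1, a repressor of Cdh1, read 8.88, 8.50 and 9.11, Twist1, 8.86, 8.38 and 8.94, and Zeb1, 8.67, 8.55 and 8.75, while Cdh2, N-cadherin, read 5.06, 5.51 and 5.52, close to the limit of detection. Which cells the transcripts came from cannot be told apart in bulk RNA.

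Of the receptors that define breast cancer classes, not all were detected. Pgr, the progesterone receptor, was detected on no array by either of its probes. Esr1, oestrogen receptor alpha, read 7.44, 8.05 and 7.55 from 1 detected probe of 4, and Erbb2, the HER2 receptor, 7.67, 8.01 and 7.79. Their means of 7.68 and 7.82 lay below the median of 8.38 over detected genes and above the 25th percentile of 6.83. Gata3, a luminal transcription factor, read 10.69, 10.66 and 10.83. Of the milk genes, Wap, Lalba and Csn1s1 were detected on no array and Csn2 on array 1 only. Csn3, kappa casein, read 6.61, 6.17 and 5.05, with array 3 the lowest.

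Genes of protein synthesis and energy supply had small spreads, as bright genes did in general. The large ribosomal subunit was detected for 21 of 23 genes with a median SD of 0.065, the respiratory chain for 26 of 27 with 0.092, and glycolysis for 12 of 14 with 0.091, against 0.146 over all detected genes, 0.108 over those of mean signal 10 to 12 and 0.092 over those of 12 to 16. Gapdh read 13.11, 12.95 and 13.06, Ldha, lactate dehydrogenase, 13.32, 13.34 and 13.27, and Slc2a1, the glucose transporter GLUT1, 12.11, 11.93 and 11.97. Cell cycle and replication genes were detected in 26 of 30 cases, with a median SD of 0.142. Ccnd1, cyclin D1, read 13.61, 13.66 and 13.69, Top2a, topoisomerase II alpha, 10.60, 10.70 and 10.64, and Cdk1 11.20, 10.86 and 10.99. Mcm2, part of the replicative helicase, read 8.92, 9.79 and 8.95 and was thus higher on array 2. Cdkn2a, which encodes the cell cycle inhibitor p16, was not detected by any of its 3 probes (4.71, 4.63 and 4.67).

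Hypoxia-induced genes outside glycolysis were detected in 15 of 16 cases. Vegfa, the vessel growth factor, read 11.33, 11.10 and 11.58, Car9, a carbonic anhydrase, 10.02, 9.85 and 10.16, and Ndrg1 11.88, 11.67 and 11.93. Each of these was lowest on array 2 and highest on array 3. Of the 15, 10 were lowest on array 2 (33.1% of all detected genes) and 7 highest on array 3 (27%). Highest on array 2 were 4, such as Plod2 at 9.59, 9.98 and 9.39, and 0 of the 15 ranged over 2-fold. Heat shock and unfolded protein genes were all detected (20 of 20), and 3 ranged over 2-fold (15%, against 2.72% of all detected genes). They were Hspa1a at 6.74, 5.61 and 6.63, Hspa1b at 7.21, 6.08 and 7.54, and Hspb1 at 7.51, 6.53 and 8.31. These are inducible heat shock proteins, and all were lowest on array 2. Hspa1a and Hspa1b are near-identical copies, so their probes may read both. Hspa8, the constitutive member, read 13.96, 13.97 and 13.95. Immediate early genes, which respond to stimuli and to tissue handling, were detected in 17 of 20 cases, with Fos at 9.97, 9.54 and 9.70 and Egr1 at 11.66, 11.77 and 11.75. Cholesterol and fatty acid synthesis genes were detected in 15 of 16 cases, with Sqle, squalene epoxidase, at 11.18, 11.28 and 10.92 and Fasn, fatty acid synthase, at 5.66, 5.20 and 5.35.

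All 21 collagen and matrix genes were detected, with Bgn (biglycan) at 13.66, 13.84 and 13.43, Col4a1, a basement membrane collagen, at 12.48, 12.72 and 12.67, and Tnc, tenascin C, at 12.68, 12.91 and 12.43. Eln, elastin, read 9.67, 8.78 and 8.51, highest on array 1, and was the one member over 2-fold. Metalloproteinases and their inhibitors were detected in 22 of 26 cases. Mmp13, a collagenase, read 13.56, 13.11 and 13.79, Mmp9, a gelatinase, 13.52, 13.64 and 13.47, and Mmp3, stromelysin 1, 12.22, 12.16 and 12.35. Mmp10, stromelysin 2, read 11.76, 10.35 and 12.11 and alone of the list ranged over 2-fold, lowest on array 2.

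Of the plasminogen system, 10 of 13 genes were detected. Plau read 12.95, 13.15 and 12.70 when the 3 arrays were normalised alone, and Plaur, its receptor, 9.0, 9.09 and 9.0. Plat, tissue plasminogen activator, read 9.92, 9.92 and 10.13. Plg, which encodes the zymogen plasminogen itself and is made mainly in liver, was not detected by any of its 4 probes. Serpinb2, an inhibitor of both activators, read 6.36, 5.11 and 5.34, with array 1 over 2-fold above array 2. Anxa2 and S100a10, the cell surface pair that binds plasminogen, read 14.77, 14.72 and 14.72, and 11.67, 11.70 and 11.91.

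**Figure D2:**
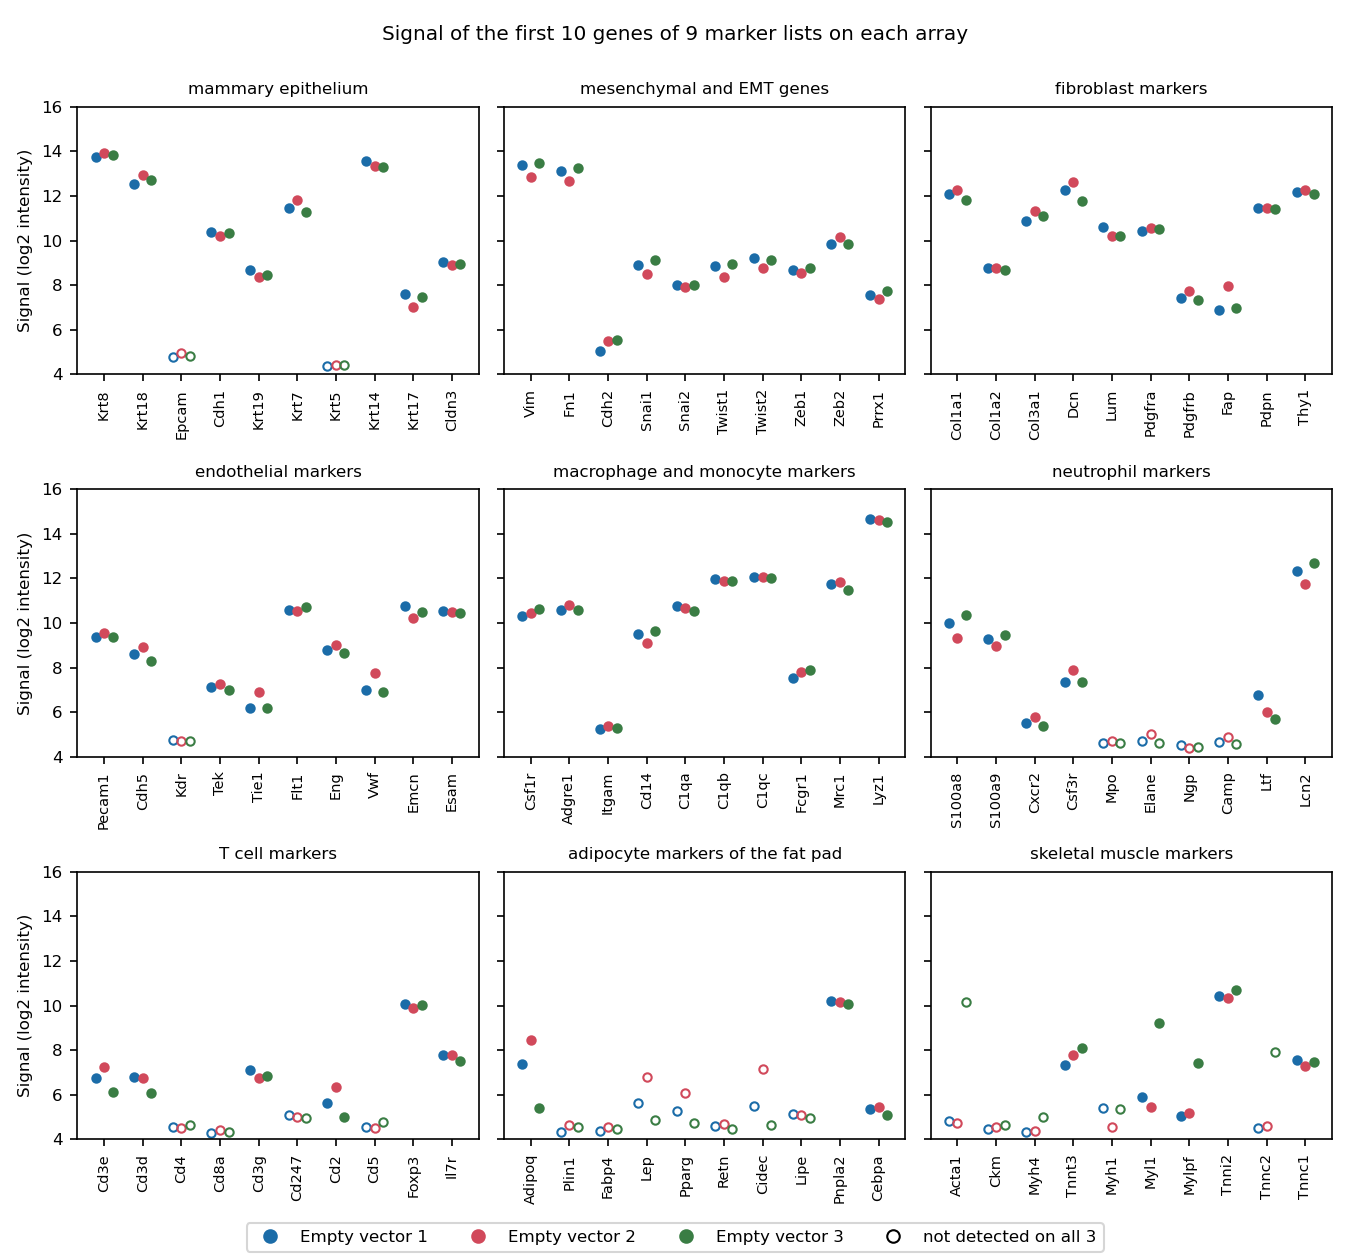
Each panel shows 1 marker list and its first 10 measured genes, with the signal (log2 intensity) of arrays 1, 2 and 3 as coloured points; open points are genes not detected on all 3 arrays. The points of most epithelial, mesenchymal and macrophage genes lie close together, those of adipocyte and muscle genes apart.

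Host cells were read from their markers. Macrophage and monocyte markers were detected in 21 of 22 cases. Csf1r, the receptor these cells need for survival, read 10.31, 10.44 and 10.61, Adgre1, the F4/80 antigen, 10.56, 10.82 and 10.60, and Mrc1, the mannose receptor, 11.76, 11.83 and 11.46. The complement genes C1qa, C1qb and C1qc ranged by at most 0.24. Cd163, a haemoglobin scavenger receptor, read 9.57, 9.04 and 8.24, Lyz2, a lysozyme, 13.43, 12.43 and 13.09, and Ccr2, a monocyte chemokine receptor, 5.78, 6.45 and 5.36. These 3 alone of the list ranged over 2-fold (14.3%, against 2.72% of all detected genes). Cd163 and Lyz2 were highest on array 1 and Ccr2 on array 2. The other 2 Lyz2 probes read 11.68, 11.66 and 11.87, and 5.21, 5.70 and 5.05, so the low value of array 2 rests on 1 probe.

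Neutrophil markers were detected in 13 of 19 cases (68.4%, against 52.3% of all genes). S100a8 and S100a9, the calprotectin pair abundant in neutrophils, read 10.00, 9.35 and 10.38, and 9.29, 8.95 and 9.48. The granule genes of bone marrow precursors Mpo, Ngp and Camp were detected on no array, and Elane on array 2 only. Ltf, lactoferrin of the same cells' granules, was detected, at 6.76, 6.02 and 5.70, as was Lcn2, lipocalin 2, at 12.33, 11.73 and 12.68. Ltf is also in the list of mammary receptors and milk genes. Which cells either transcript came from cannot be told apart in bulk RNA. Mmp8, a neutrophil collagenase, and Cd177 were also detected on no array.

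Of 17 T cell markers 10 were detected (58.8%), close to the 52.3% of all genes. Their median signal was 6.70, against 8.38 over all detected genes. Cd3e read 6.74, 7.24 and 6.12 and Cd3d 6.79, 6.77 and 6.09, both parts of the T cell receptor complex. The co-receptors Cd4 and Cd8a were detected on no array. Foxp3, a factor of regulatory T cells, read 10.06, 9.91 and 10.01 from 2 detected probes of 4, and Cd8b1 read 10.68, 11.14 and 10.71. Among NK and cytotoxic genes 3 of 12 were detected: Nkg7 and Klrd1 at 5.69 to 6.89, and Prf1, perforin, at 9.98, 10.12 and 9.83, while Ncr1, Gzmb and Ifng were detected on no array. Of 11 B and plasma cell genes, Cd22 and Blnk were detected, with Cd22 at 5.54, 5.63 and 5.20.

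Mast cell and basophil markers were detected in 12 of 14 cases, with Cpa3, a carboxypeptidase of mast cell granules, at 7.92, 7.36 and 7.20, and the tryptase Tpsab1 at 8.42, 7.27 and 8.06. Dendritic markers were detected in 12 of 17 cases (70.6%, against 52.3% of all genes). Xcr1 and Clec9a, which mark the cross-presenting subset, were detected on no array. Endothelial markers were detected in 18 of 22 cases, with Pecam1 (CD31) at 9.39, 9.57 and 9.36 and Cdh5 (VE-cadherin) at 8.62, 8.93 and 8.31. Kdr, the main VEGF receptor, was not detected by either of its probes, and the lymphatic genes Prox1 and Flt4 were not detected. Lyve1, found on lymphatic vessels and some macrophages, read 6.55, 7.59 and 6.19, highest on array 2. Fibroblast markers were detected in 17 of 18 cases, with Col1a1 at 12.10, 12.29 and 11.83 and Dcn, decorin, at 12.25, 12.62 and 11.76. Acta2, the smooth muscle actin of pericytes and myofibroblasts, read 13.59, 13.80 and 13.61, and 12 genes of its list of 14 were detected. Erythroid and platelet genes were detected in 3 of 11 cases, with Hba-a1, alpha globin, at 10.98, 11.69 and 10.84. Schwann cell genes were detected in 3 of 9 cases without Sox10, and skin keratinocyte genes in 2 of 14, without Krt1. Lor, loricrin, was detected on array 3 only.

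Signals that recruit or feed these cells were present as transcripts. Of colony-stimulating factors and cytokines, 20 of 22 were detected. Csf1, the macrophage growth factor, read 8.57, 8.50 and 8.74, Csf2 (GM-CSF) 6.61, 7.25 and 7.06, and Csf3 (G-CSF), which drives neutrophil production, 6.70, 6.05 and 7.00. Il1b read 11.07, 11.03 and 10.92, while Il1a read 9.93, 8.42 and 9.83 and was lowest on array 2. Of 22 chemokine genes 18 were detected. Ccl8, a monocyte attractant, read 12.89, 12.57 and 12.52, Cxcl1, a neutrophil attractant, 11.00, 10.82 and 10.99, and Ccl2 7.71, 7.37 and 7.88. Of 19 angiogenic factors 15 were detected, with Angpt2, an antagonist of the Tek receptor, at 10.28, 9.79 and 10.11.

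The spread between arrays was small for most genes. The median SD of the detected genes was 0.146 and the median range 0.278, a fold of 1.21. It fell with signal, from a median SD of 0.197 at a mean of 4 to 6 to 0.093 at 12 to 16. Of the 9976 detected genes 271 ranged over 2-fold (2.72%), 1 of them among the 495 genes above 12. In the deposited processed values 83 did.

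**Figure D3:**
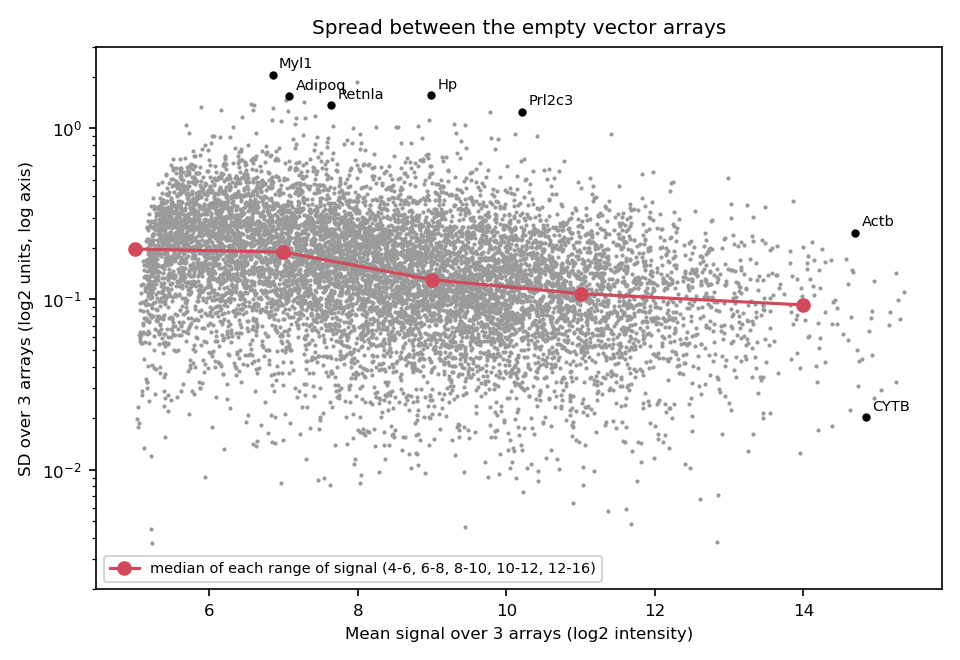
Each grey point is 1 of the 9976 detected genes, with its mean signal (log2 intensity) across and its SD over the 3 arrays upward on a log axis; red points are medians of 5 ranges of signal. The medians fall from 0.197 to 0.093, and Myl1, Hp, Adipoq, Retnla and Prl2c3 lie far above them.

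Array 2 stood apart from the other two. The SD of the difference over detected genes was 0.224 between arrays 3 and 1, against 0.349 between arrays 2 and 1 and 0.382 between arrays 3 and 2. Pearson's r across genes, which are not independent replicates, was 0.994, 0.985 and 0.983 in the same order. Between array 1 and array 3, 31 genes differed over 2-fold (0.311%), against 145 between arrays 2 and 1 and 214 between arrays 3 and 2.

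Probes of 1 gene also disagreed more where array 2 was involved. Over 3818 genes with several detected probes, their differences between arrays 3 and 1 were over 1 log2 unit apart for 10 genes, against 336 between arrays 2 and 1 and 304 between arrays 3 and 2. The 5 probes of Actb show it: 1 read 14.59, 14.98 and 14.52, another 7.98, 10.55 and 7.98, and yet another 13.23, 12.58 and 13.19. Probes of the same transcript thus went up and down on array 2. Of 87 genes over 2-fold with another detected probe, 62 had all other probes in the same direction and 25 did not. The split was uneven: all agreed for 29 of 51 genes low on array 2, 18 of 20 high on array 2, 11 of 11 low on array 3 and 1 of 1 high on array 3. Differences of array 2 are therefore given with those between arrays 3 and 1, and the part of probe disagreement in them was not tested. Over all detected genes, 24.8% were highest on array 1, 48.1% on array 2 and 27% on array 3, and 31.9%, 33.1% and 35% were lowest on arrays 1, 2 and 3.

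**Figure D4:**
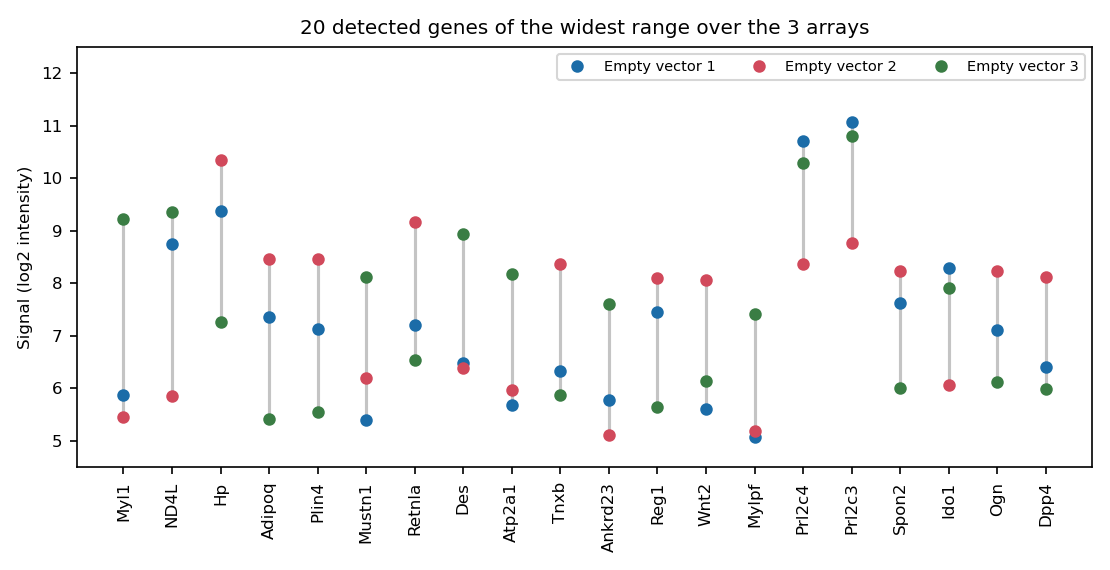
The 20 detected genes of the widest range are shown in order, with the signal (log2 intensity) of each array as a coloured point and a grey line from lowest to highest. Muscle genes such as Myl1 and Des are high on array 3, fat pad genes such as Adipoq and Plin4 high on array 2 and low on array 3, and Prl2c3, Prl2c4 and Ido1 low on array 2.

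Skeletal muscle genes were high on array 3. Myl1, a light chain of fast muscle myosin, read 5.88, 5.46 and 9.23 from 1 detected probe of 3, the widest range of any detected gene, with 13.6-fold between the highest and the lowest array. Atp2a1, the calcium pump of fast muscle, read 5.68, 5.97 and 8.17, and Mylpf, another fast light chain, 5.06, 5.18 and 7.42. Array 3 stood above both others for each. Of 21 muscle genes measured, 9 were detected on all 3 arrays (42.9%, against 52.3% of all genes). Of these 9, 5 ranged over 2-fold (2.72% of all detected genes), and 5 also between arrays 3 and 1 (0.311%). Of the 9, 8 were highest on array 3, against 27% of all detected genes. The median difference of array 3 from array 1 was 1.15, against -0.003 over all detected genes.

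The clearest member did not pass the rule of detection on all arrays. Acta1, skeletal alpha actin, read 4.85 and 4.74 on arrays 1 and 2, not above background, and 10.17 on array 3. That is at least 35.8-fold higher on array 3 than the limit set by the lowest detected signal of the other 2 arrays. Tnnc2, a troponin C, read 4.51, 4.58 and 7.89, at least 7.38-fold higher by the same bound. Outside the list, Des (desmin), Ankrd23 and Mustn1, all known from muscle, were also highest on array 3, at 8.93, 7.6 and 8.11 against at most 6.49, 5.78 and 6.19 on the others. A second Mustn1 probe read 5.40, 5.81 and 7.85. Ckm, Tnni1, Casq1, Myoz1 and Pgam2, also muscle genes, were detected on no array. Tnni2, Tnnc1 and Eno3 ranged by at most 0.36 over the arrays.

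Adipocyte genes ran the other way. Adipoq, the hormone adiponectin, read 7.36, 8.47 and 5.41, an 8.31-fold range. Plin4, a lipid droplet coat protein, read 7.12, 8.46 and 5.54, and Lpl, lipoprotein lipase, 8.58, 9.54 and 7.50. Each was highest on array 2, between on array 1 and lowest on array 3. Of 16 adipocyte genes measured, 8 were detected on all 3 arrays (50%, against 52.3% of all genes). Of these 8, 5 ranged over 2-fold (2.72% of all detected genes), 6 were highest on array 2 (48.1%) and 7 lowest on array 3 (35%). The median difference of array 3 from array 1 was -0.74. Between these arrays 4 genes differed over 2-fold (0.311% of all detected genes), so the order did not rest on array 2 alone. Lep (leptin), Cidec and Pparg were detected on arrays 1 and 2 only, with Cidec at 5.47, 7.14 and 4.63. Plin1, Fabp4 and Retn were detected on no array, although fat cells use them strongly.

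Car3, a carbonic anhydrase of fat and muscle that is among the adipocyte genes counted above, read 7.02, 7.21 and 5.11. Outside the list, Hp, haptoglobin, which fat and myeloid cells also make, had a similar order, at 9.37, 10.34 and 7.26. The other 2 Hp probes read 8.67, 9.02 and 6.92, and 8.49, 8.64 and 6.64, the same order. Retnla, a secreted protein of alternatively activated macrophages and fat, read 7.21, 9.17 and 6.55, Reg1 7.45, 8.10 and 5.64, and Spon2 7.63, 8.24 and 6.0.

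Connective tissue genes were likewise highest on array 2. Of 17 detected fibroblast markers 13 were highest there, where 48.1% of all detected genes were. On array 3, 12 were lowest, against 35%. Dpt, dermatopontin, read 7.72, 9.04 and 7.06, and Fap, fibroblast activation protein, 6.86, 7.97 and 6.96. These 2 ranged over 2-fold (11.8%, against 2.72% of all detected genes), but 0 differed so between arrays 3 and 1 (0.311% of all). The median difference of array 3 from array 1 was -0.10, much less than for adipocyte genes. Genes of resting connective tissue outside the list moved alike, with Tnxb (tenascin X) at 6.34, 8.37 and 5.88, Ogn (osteoglycin) at 7.11, 8.24 and 6.12, and Dpp4, also found on T cells, at 6.42, 8.11 and 6.0. Wnt2, a secreted Wnt ligand, read 5.6, 8.05 and 6.14. The other detected Tnxb probes were also highest on array 2, at 7.96 and 7.42. Collagen and matrix genes were highest on array 2 in 13 of 21 cases, against 48.1% of all detected genes.

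Most T cell genes were highest on array 2 and lowest on array 3. Of 10 detected genes 7 were highest on array 2 (48.1% of all detected genes), 7 lowest on array 3 (35%), and 3 ranged over 2-fold (2.72%): Cd3e, Cd2 at 5.65, 6.36 and 5.02, and Cd6 at 6.14, 6.75 and 5.67. Without background correction 0 did, and 0 differed over 2-fold between arrays 3 and 1. The median difference of array 3 from array 1 was -0.33, with 9 of 10 genes lower on array 3. Cd3d, Cd3g and Foxp3 were highest on array 1, and Cd8b1 was lowest there. The part of adjoining fat pad tissue in the T cell signal was not tested. Of 12 detected mast cell genes 9 were highest on array 1, against 24.8% of all detected genes, and 0 lowest there. Their median difference of array 3 from array 1 was -0.46.

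**Figure D5:**
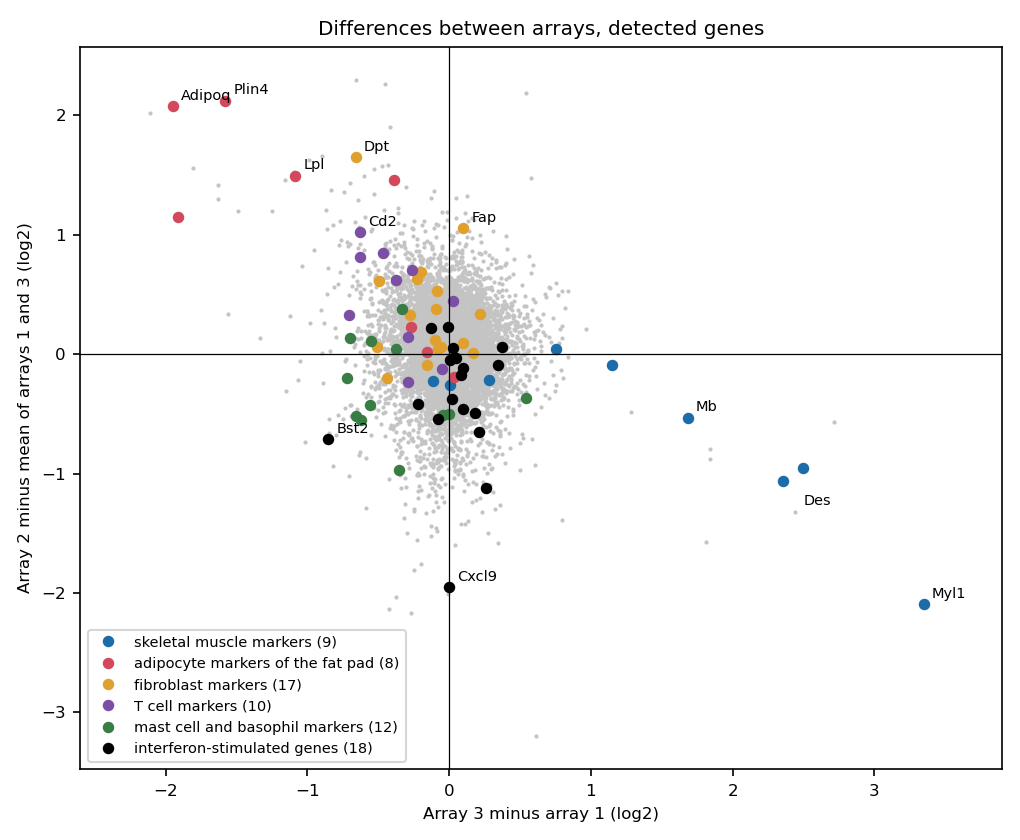
For each detected gene (grey) the difference of array 3 from array 1 (log2) is plotted across and that of array 2 from the mean of arrays 1 and 3 upward, with 6 gene lists in colour. Muscle genes extend to the right, adipocyte genes to the upper left, fibroblast and T cell genes mostly upward, and interferon-stimulated genes mostly downward.

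Most interferon-stimulated and antigen presentation genes were lowest on array 2. Of 18 detected interferon-stimulated genes 13 were lowest there, and of 17 detected antigen presentation genes 11, against 33.1% of all detected genes. The median deviation of array 2 from the gene mean was -0.18 and -0.22, against 0.04 over all detected genes. The genes named next moved more than most. Of the interferon list 3 were highest on array 2: Irf7 at 7.86, 8.09 and 7.85, Irf1 and Oas1a. Oasl2 and Usp18 ranged by 0.06 and 0.05. Cxcl9, an attractant of T cells induced by interferon gamma, read 9.61, 7.65 and 9.61, and Cxcl10, a related chemokine, 8.21, 7.22 and 8.47. Psmb8, an immunoproteasome subunit, read 12.19, 11.20 and 12.07, and Tap2, part of the peptide transporter, 10.20, 9.38 and 10.03. The class I gene H2-D1 read 13.53, 12.98 and 13.47, and H2-K1 was lowest on array 2 too, at 11.52. Ido1, the interferon-induced enzyme that degrades tryptophan, read 8.29, 6.06 and 7.91. Arrays 1 and 3 were close for each. Class II genes did not share this: H2-Ab1 read 11.19, 11.56 and 11.05 and H2-Eb1 11.42, 11.62 and 11.39, both highest on array 2. Of the detected interferon-stimulated genes 3 ranged over 2-fold (16.7%, against 2.72% of all detected genes). Bst2, at 8.07, 6.93 and 7.21, was the third of these, beside Cxcl9 and Cxcl10. It differed from them, as array 1 stood above both others and array 3 lay nearer to array 2. The median difference of array 3 from array 1 was 0.04 for the interferon list and -0.08 for antigen presentation, so arrays 1 and 3 lay close for both lists. Array 2 is the one on which probes of 1 gene disagreed more.

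Prolactin-related genes, known from the placenta and, for Prl2c members (proliferins), from growing mouse cells, were low on array 2 too. Of 23 members of the family measured, 4 were detected (17.4%, against 52.3% of all genes). Prl2c3 read 11.07, 8.77 and 10.80, Prl2c4 10.71, 8.36 and 10.29, and Prl2c2 11.04, 9.38 and 10.81. Prl3d3, a placental lactogen, read 10.16, 8.23 and 9.92. Their lowest value, on array 2, lay 3.18-fold to 5.09-fold under the highest, on array 1. The Prl2c genes are close copies, so their probes may read each other's transcripts and are not independent. ND4L, a mitochondrially encoded subunit of complex I, read 8.76, 5.86 and 9.37, lowest on array 2 by its single probe, while CYTB, encoded on the same genome, read 14.84, 14.83 and 14.87.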

How the data were processed

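The deposited raw values are intensity per probe, as scanned, without subtraction of background or normalisation. A deposited detection value goes with each, and 1 minus it was used as the detection p-value against the negative controls (steps of 1 in 936). How arrays were scanned and beads summarised was not stated. The authors' processed log2 values, from GeneSpring GX 11.0 per the series design text, are centred per probe on an unknown level and served for the join and as an alternative.

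Raw rows carry bead addresses and processed rows probe IDs, so they were joined by their values: 45279 of 45281 rows matched. On shuffled rows of known identity, 0 of 45281 matches were wrong. The join was not checked against a list from the maker. Symbols came from the platform annotation (34885 probes with 1 symbol, 18 with several, 10378 with none), and 0 changed against RefSeq.

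Background was corrected by normexp from detection p-values with offset 16, then quantile normalisation over 3 arrays and log2 (limma 3.58.1, R 4.3.3). Calls were tested on simulated data. Named genes were drawn from 4 leading genes per list, but not all of these are named. The 20 brightest, the 20 of widest range, and up to 4 detected members of widest range per described list were also drawn on. Other named genes were chosen after their values were seen, and members and lists with earlier results of these data known. Lists overlap (Bst2, Cxcl9, Cd74 and Ltf among others). Some items are not reported here. Python 3.11.15, pandas 2.3.3 and matplotlib 3.10.9 were used. Depth does not apply to arrays; their number limits the precision.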

Additional observations from a re-analysis of the deposited data

How the results depend on the processing

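No paired analysis was possible because the results come from 1 group and from no test. The count of 9976 detected genes ran from 9241 (detection p under 0.01) to 11452 (detection on at least 1 array), and from 10173 to 10178 with 1 array left out. The 485 detected genes of the lists ran from 461 to 542. The median SD of 0.146 lay between 0.112 and 0.149 under the other settings, and between 0.080 (without array 2) and 0.143 with 1 array left out. The 271 genes over 2-fold became 97 without background correction, 126 with an offset of 50, 141 with the mean of all probes and 83 in the deposited processed values, and ran from 32 (without array 2) to 207 with 1 array left out. Less subtraction and averaging shrink ranges by construction. Genes highest on array 2, 4801, became 8121 without the filter on detection, which adds undetected genes, and stayed between 4269 and 5098 otherwise, or between 5864 and 5924 with array 1 or 3 left out, when only 2 arrays compete. The 20 genes of widest range kept their direction in all 120 comparisons of 6 settings. These settings reuse the same arrays, and for a gene with 1 probe the mean of all probes changes nothing. The kept direction was thus nearly fixed in advance and is no support. The difference of the odd array from the median array moved by over 1.5 times in 17. With the mean of all probes, Myl1 went from 3.35 to 1.69, Tnxb from 2.03 to 1.20, Spon2 from -1.63 to -0.88, Ogn from 1.13 to 0.64 and Dpp4 from 1.70 to 0.70. The others came without background correction or in the deposited processed values, such as Adipoq from -1.95 to -1.17 and -1.14. Fibroblast genes highest on array 2 went from 13 to 11 with the mean of all probes. Their median deviation of array 2 from the gene mean went from 0.22 to 0.07, and that of all detected genes from 0.04 to 0.01. Of the 3 T cell genes over 2-fold 0 were left without background correction, with an offset of 50 or in the deposited processed values, and of 5 muscle genes 3 in the last. Arrays number 3, so no outlier check was made. Signals near the limit of 5.01 carry little order.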
